A study of Mus musculus with 4 samples.

Results

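The genes described here encode guidance cues and their receptors: ephrins and Eph receptors, semaphorins with plexins and neuropilins, Slit ligands with Robo receptors, and the netrin receptors of the Unc5 family, Dcc and Neo1. They were chosen by symbol alone, as the rows of these families plus Neo1 and Dcc, which gave 65 of the 23450 genes listed, 31 ligands and 34 receptors. Amplified cDNA, made with the SMARTer kit from total RNA, was sequenced from sorted hematopoietic stem cells (HSCs) of mouse bone marrow. The study compared 2 libraries of long-term HSCs (LT-HSC), sorted as CD48-, CD150+, CD34- and CD9high, with 2 libraries of short-term HSCs (ST-HSC), sorted as CD48-, CD150+ and CD9low. Each library came from 2000 cells. All the cells share the CD48- CD150+ gate, the ST-HSC labels name no CD34 gate, and no strain, age, sex, genotype or treatment is stated. The labels do not say whether libraries of a group came from separate mice or pools of mice, so the p-values below measure no more than how far these libraries spread, possibly for technical reasons. In such bulk samples, fewer cells of a type and less RNA per cell cannot be told apart.

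Guidance cues steer growing axons and migrating cells. Ephrins are membrane-bound and bind Eph receptor tyrosine kinases on neighbouring cells, semaphorins act through plexins (most of the secreted class 3 semaphorins with a neuropilin as co-receptor), and secreted Slits act through Robo receptors. Netrins bind Dcc, Neo1 and Unc5 proteins, and repulsive guidance molecules bind Neo1. In bone marrow and vessels the same families act in adhesion, homing and the contact of blood cells with endothelium and stroma.

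LT-HSC 1 and 2 yielded 13079351 and 16158680 recovered reads, and ST-HSC 1 and 2 yielded 15045392 and 14838149. Levels are reads scaled to the library total (CPM, undoing the log2 of the deposited values), and a gene written as 0 CPM held at most 1 read. A floor of 3 reads, used to call a gene read in a library, stood at 0.229, 0.186, 0.199 and 0.202 CPM in the same order. Intervals and floors on amplified reads cover counting error only. The 10 HSC markers, a list that includes the sorting genes Cd9, Slamf1, Cd34 and Cd48, were at or above the floor in each library. They summed to 3385 and 3573 CPM in LT-HSC, against 2703 and 2928 CPM in ST-HSC. Of the genes encoding proteins used for sorting, Cd34 had 134 and 201 CPM in LT-HSC, against 324 and 429.9 CPM in ST-HSC. Cd48 had 0.229 and 0.186 CPM in LT-HSC, against 16.5 and 38.8 CPM in ST-HSC. Cd9, whose protein was sorted high for LT-HSC and low for ST-HSC, differed less. It had 134 and 124 CPM in LT-HSC, against 100 and 113 CPM in ST-HSC. Slamf1, which encodes CD150, had 113 and 138 CPM in LT-HSC, against 65.8 and 108 CPM in ST-HSC. LT-HSC 1 stood apart: 14149 genes were at or above the floor there, against 13040 to 13103 in the other libraries, and 1276 genes were at or above the floor in LT-HSC 1 alone, against 432 to 540 in each of the others alone. Levels of different genes are not compared, since the values are not per length.

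Few guidance genes were read in every library. A gene is called read in a group when both its libraries held at least 3 reads, and 21 of the 65 guidance genes (32.3%) met this in LT-HSC, against 24 (36.9%) in ST-HSC. Over all listed genes the shares were 51.2% in LT-HSC and 50.6% in ST-HSC. In all 4 libraries 16 guidance genes (24.6%) were read, beside 47.2% of all genes: the ligands Sema3a, Efnb2, Sema4b, Sema4d, Sema4g and Sema7a, and the receptors Ephb4, Robo3, Unc5a, Plxna2, Plxna3, Plxna4, Plxnb1, Plxnb2, Plxnc1 and Plxnd1. In LT-HSC but not in both ST-HSC libraries 5 were read (7.69%, beside 4.02% of all genes), namely Neo1, Efna1, Ephb6, Dcc and Efnb1. In ST-HSC but not in both LT-HSC libraries 8 were read (12.3%, beside 3.38% of all genes). These were Sema3e, Efna4, Sema5a, Sema6d, Epha1, Epha7, Ephb3 and Nrp1. A further 25 (38.5%, beside 15.2% of all genes) reached the floor in some library but in both libraries of neither group. Sema3b, Sema3g, Sema4a, Sema4c, Sema5b, Sema6b, Efnb3, Epha8, Epha10, Plxnb3 and Unc5b, 11 in all (16.9%, beside 28.9% of all genes), held at most 1 read in each of the 4 libraries.

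**Figure D1:**
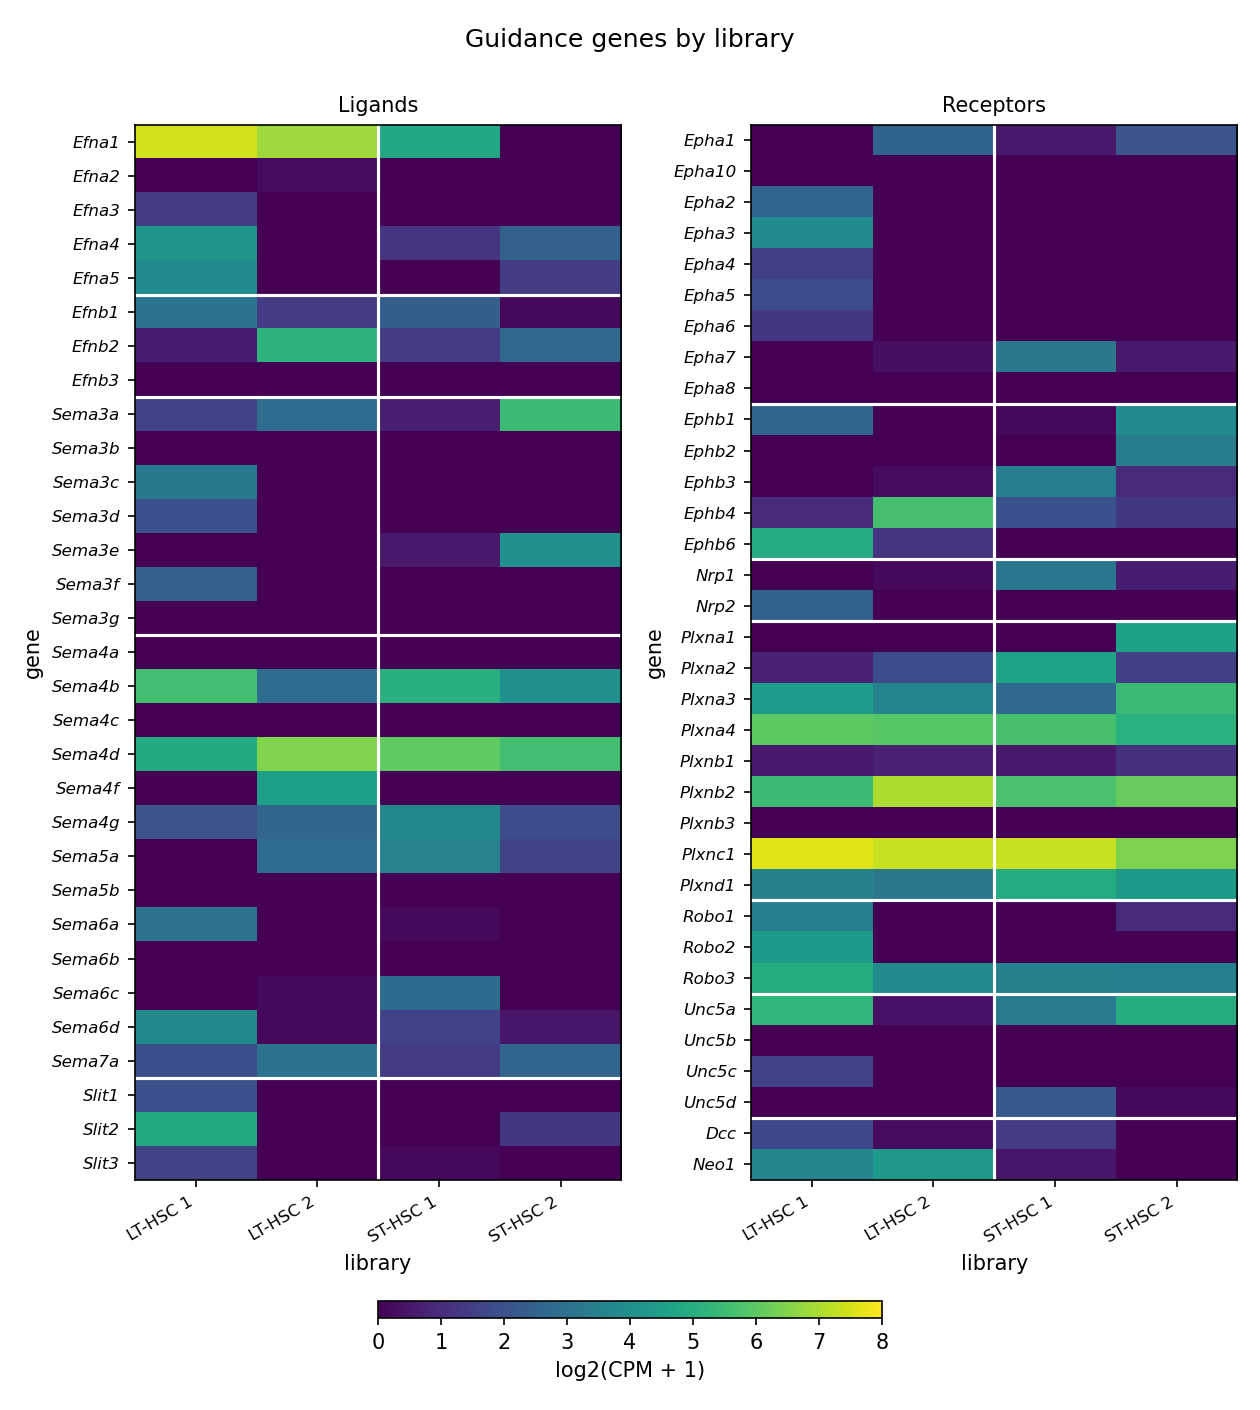
Each row is a guidance gene and each column a library, with colour giving log2(CPM + 1) from 0 to 8, ligands on the left and receptors on the right, and white lines between families. Plexins fill most columns, while a run of EphA rows is coloured in LT-HSC 1 alone.

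Plexins, the semaphorin receptors, had 7 of 9 members read in both groups, the largest share of the families described here. Plxnc1, the receptor of Sema7a, had 193 and 159 CPM in LT-HSC 1 and 2, against 158 and 84.1 CPM in ST-HSC 1 and 2. The lower LT-HSC value exceeded the higher ST-HSC value by a narrow margin. On the log2(CPM + 1) scale, which understates the change of low genes, the difference was 0.60 ± 0.39 (SE, limma adjusted p = 0.87). Plxna4, an A-type plexin, also had its LT-HSC values above, with 62.6 and 59.8 CPM in LT-HSC, against 49.9 and 33.2 CPM in ST-HSC (log2 fold change 0.58 ± 0.47, limma adjusted p = 0.91). Plxnd1, the plexin that binds Sema3e directly, lay the other way, with 10.5 and 8.04 CPM in LT-HSC, against 29.4 and 19.4 CPM in ST-HSC. It was the only tested guidance gene with both LT-HSC values below both ST-HSC values (log2 fold change -1.29 ± 0.85, limma adjusted p = 0.87).

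The other plexins overlapped between the groups. Plxnb2, a receptor of class 4 semaphorins, had 42.9 and 127 CPM in LT-HSC, against 50.9 and 69.7 CPM in ST-HSC, and the wider spread was within LT-HSC. Plxna3 had 20.0 and 11.0 CPM in LT-HSC, against 5.72 and 41.9 CPM in ST-HSC, the 2 ST-HSC libraries being the extremes. Plxna2 had 0.688 and 2.72 CPM in LT-HSC, against 23.7 and 1.89 CPM in ST-HSC, so ST-HSC 1 alone was high. Plxna1 was read in ST-HSC 2 alone, at 23.1 CPM, and held at most 1 read in the other 3 libraries. Plxnb1, a receptor of Sema4d, was read in all 4 libraries at 6 and 11 reads in LT-HSC and 7 and 18 reads in ST-HSC, and did not pass the filter for testing. Plxnb3 held at most 1 read in each library.

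Membrane-bound semaphorins of classes 4 to 7 supplied 4 of the 6 ligands read in all libraries. Sema4d, known on lymphocytes as CD100 and a ligand of plexin B1, plexin B2 and CD72, had 28.6 and 88.0 CPM in LT-HSC, against 65.2 and 47.2 CPM in ST-HSC. Sema4b had 47.2 and 6.25 CPM in LT-HSC, against 32.8 and 15.4 CPM in ST-HSC. For each of these genes the LT-HSC libraries were the highest and the lowest of the 4. Sema7a, a GPI-anchored semaphorin that binds plexin C1 and integrin beta 1, had 2.83 and 7.18 CPM in LT-HSC, against 1.60 and 5.12 CPM in ST-HSC. Sema4g had 3.13 and 5.20 CPM in LT-HSC, against 12.5 and 2.70 CPM in ST-HSC. Neither gene separated the groups.

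Of the remaining membrane semaphorins, Sema4a, Sema4c, Sema5b and Sema6b held at most 1 read in each library, and the others were read in part of the libraries. Sema5a had 0 and 6.25 CPM in LT-HSC, against 10.8 and 2.09 CPM in ST-HSC. Sema6d had 12.8 and 0.124 CPM in LT-HSC, against 2.06 and 0.404 CPM in ST-HSC. Sema4f had 0 and 21.8 CPM in LT-HSC and 0 CPM in both ST-HSC libraries, so a single library, LT-HSC 2, held its 352 reads. Sema6a and Sema6c were likewise at or above the floor in 1 library each, with 91 reads in LT-HSC 1 and 91 reads in ST-HSC 1. Among the secreted class 3 semaphorins, Sema3a, a repellent of axons that acts through neuropilin 1, was read in all libraries, at 2.14 and 6.19 CPM in LT-HSC, against 0.598 and 43.1 CPM in ST-HSC. Sema3e, the ligand of Plxnd1, had 0 CPM in both LT-HSC libraries, against 0.465 and 15.5 CPM in ST-HSC, where 230 of its reads lay in ST-HSC 2 and 7 in ST-HSC 1. ST-HSC 2 was the highest library for both. The co-receptor Nrp1 had 0 and 0.124 CPM in LT-HSC, against 7.84 and 0.539 CPM in ST-HSC, with 118 of its reads in ST-HSC 1.

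Among the ephrins, Efna1 alone separated the groups. This GPI-anchored ligand of EphA receptors had 175 and 113 CPM in LT-HSC 1 and 2, against 26.2 and 0 CPM in ST-HSC 1 and 2. The ST-HSC libraries themselves ranged from 394 reads to at most 1. The LT-HSC mean was 144 ± 43.6 CPM and the ST-HSC mean 13.1 ± 18.5 CPM (SD, n = 2 libraries each). The log2 fold change was 4.76 ± 1.65 (SE), with a limma p of 0.035 before adjustment and 0.749 after it, and it was 2.38 without ST-HSC 2 and 7.14 without ST-HSC 1. Efna4 had 16.9 and 0 CPM in LT-HSC, against 1.33 and 4.52 CPM in ST-HSC, and Efna5 had 13.6 and 0 CPM in LT-HSC, against 0 and 1.75 CPM in ST-HSC. Both were highest in LT-HSC 1 and at most 1 read in LT-HSC 2. In the annotation used, 16 of the 65 genes share exon positions with another gene, 8 of them with a gene listed in the files. Exons of Efna4 overlap those of 4731419I09Rik on the other strand, and the strand setting of the counting is not stated. 4731419I09Rik had 103 CPM in LT-HSC 2, where Efna4 held at most 1 read. Whether reads of 4731419I09Rik were counted for Efna4 was not tested. Efna2 reached the floor in LT-HSC 2 alone, with 3 reads. Of the ephrin-B ligands, Efnb2, known from arterial endothelium as the partner of Ephb4, had 0.535 and 34.7 CPM in LT-HSC, against 1.66 and 5.80 CPM in ST-HSC. Its LT-HSC 2 value lay far above the rest. Efnb1 had 7.27 and 1.67 CPM in LT-HSC, against 4.39 and 0.135 CPM in ST-HSC.

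No EphA receptor was read in both libraries of LT-HSC, whereas Epha1 and Epha7 were in ST-HSC. Single LT-HSC libraries did hold EphA reads. In LT-HSC 1 alone, Epha2, Epha3, Epha4, Epha5 and Epha6 had 66, 179, 24, 34 and 19 reads. Epha1 had 0 and 5.01 CPM in LT-HSC, against 0.465 and 3.30 CPM in ST-HSC. It overlaps Zyx, a gene at 222 to 263 CPM in the 4 libraries. Zyx had 249 CPM in LT-HSC 1, where Epha1 held at most 1 read. Whether reads of Zyx were counted for Epha1 was not tested. Epha7 had 0 and 4 reads in LT-HSC, against 121 and 7 reads in ST-HSC. Of the EphB receptors, Ephb4 and Ephb6 were read in LT-HSC. Ephb4, which binds Efnb2, had 0.918 and 48.9 CPM in LT-HSC, against 3.06 and 1.48 CPM in ST-HSC, so its level in LT-HSC 2, also the highest library for Efnb2, stood above the other 3. Ephb4 overlaps Zan, at 0.337 to 7.84 CPM. Ephb6, an Eph protein without kinase activity, had 29.4 and 1.30 CPM in LT-HSC (384 and 21 reads) and 0 CPM in both ST-HSC libraries. Against a floor of 3 reads per ST-HSC library, that mean was at least 76.4-fold higher, at least 6.47-fold without LT-HSC 1 and at least 146.2-fold without LT-HSC 2. Its limma adjusted p was 0.812. Ephb1 had 5.20 and 0 CPM in LT-HSC, against 0.133 and 13.5 CPM in ST-HSC. Ephb3 had 0 and 0.186 CPM in LT-HSC, against 9.71 and 0.943 CPM in ST-HSC, and Ephb2 was read in ST-HSC 2 alone, at 136 reads.

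Neo1, the receptor of repulsive guidance molecules and netrins, had 11.5 and 18.8 CPM in LT-HSC 1 and 2 (150 and 304 reads), against 0.399 and 0 CPM in ST-HSC 1 and 2 (6 reads and at most 1). Every LT-HSC value lay above every ST-HSC value, with an LT-HSC mean of 15.1 ± 5.19 CPM and an ST-HSC mean of 0.199 ± 0.282 CPM (SD, n = 2 libraries each). The log2 fold change was 3.73 ± 1.01 (SE), the limma p was 0.013 before adjustment and 0.718 after it. Dcc, the related netrin receptor, had 2.29 and 0.186 CPM in LT-HSC, against 1.60 and 0 CPM in ST-HSC. Unc5a, a netrin receptor of the repulsive kind, had 37.2 and 0.309 CPM in LT-HSC, against 8.91 and 30.2 CPM in ST-HSC. Its exons overlap Hk3, a hexokinase gene on the other strand, which had 35.9 and 0 CPM in LT-HSC, against 5.98 and 39.6 CPM in ST-HSC. LT-HSC 2 was the lowest library for both genes. Without a stated strand, reads of the pair cannot be told apart. Unc5d was at or above the floor in ST-HSC 1 alone, at 55 reads.

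Of the 6 Slit and Robo genes, 3 (Slit1, Slit3 and Robo2) were at or above the floor in LT-HSC 1 alone. Robo3, a Robo receptor of commissural axons, was the only one read in all libraries, with 30.1 and 13.7 CPM in LT-HSC, against 10.4 and 9.90 CPM in ST-HSC. Both LT-HSC values lay above both ST-HSC values (log2 fold change 0.94 ± 0.90, limma adjusted p = 0.94). Slit2, a secreted Robo ligand, had 27.9 and 0 CPM in LT-HSC, against 0 and 1.48 CPM in ST-HSC. Robo1 had 9.94 and 0 CPM in LT-HSC, against 0 and 0.943 CPM in ST-HSC. Robo2 had 257 reads, or 19.6 CPM, in LT-HSC 1 and at most 1 read in the other libraries. No Slit was read in both libraries of either group.

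**Figure D2:**
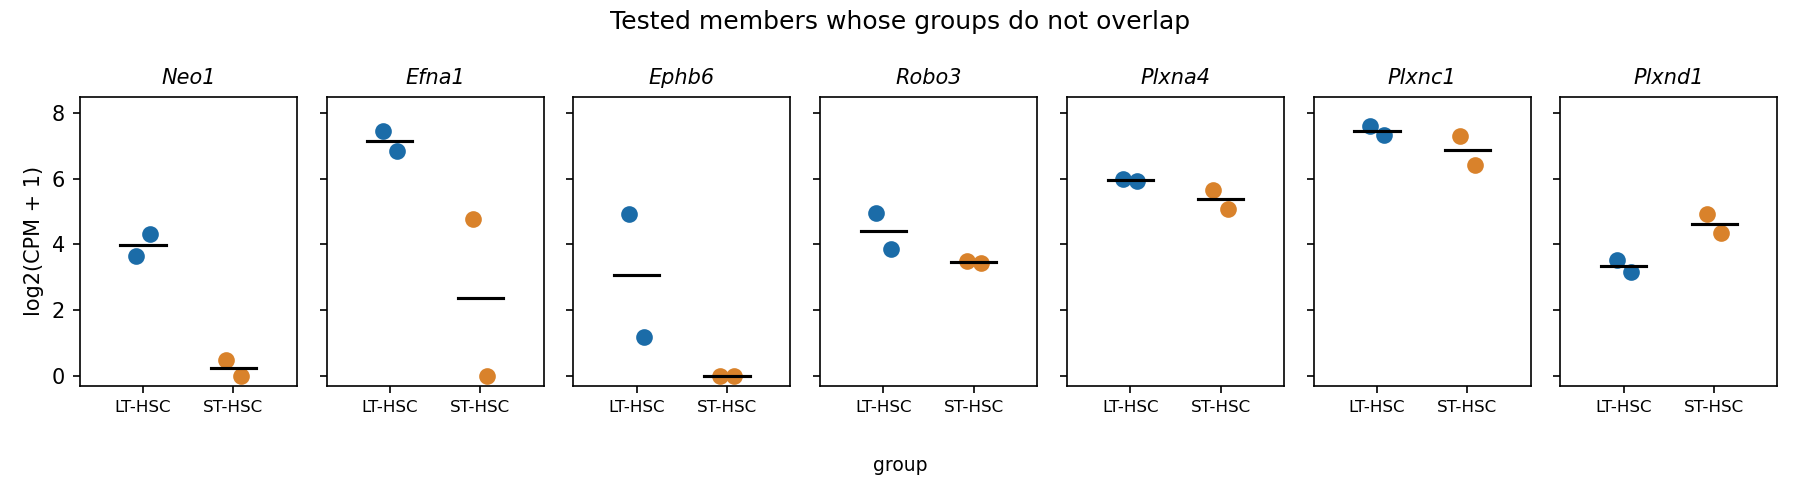
Each panel is a tested guidance gene whose LT-HSC and ST-HSC values do not overlap; points are the 2 libraries of a group on log2(CPM + 1), and bars their mean. Neo1, Efna1, Ephb6, Robo3, Plxna4 and Plxnc1 lie higher in LT-HSC and Plxnd1 lower, with Robo3, Plxna4 and Plxnc1 close to overlap.

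Of the 65 genes, 27 passed the filter of at least 1 CPM in at least 2 libraries (41.5%, beside 53.8% of all genes), and none was called. With limma over 12608 genes, 0 of 27 passed an adjusted p of 0.05, beside 0.0% of all genes, whose smallest adjusted p was 0.718, and limma-voom on the recovered reads also called 0. At an unadjusted p under 0.05, 2 guidance genes lay higher in LT-HSC (Neo1 and Efna1, 7.41% of 27) and 0 lower, beside 2.92% of all tested genes higher and 3.59% lower. Leaving out libraries changed which genes these were: Neo1 and Ephb4 without LT-HSC 1, Ephb6 alone without LT-HSC 2, and Efna1 alone without ST-HSC 1 or without ST-HSC 2. With a pseudocount of 0.25 it was Neo1 alone, and with limma-voom the count was 0. Every LT-HSC value exceeded every ST-HSC value for 6 of the 27 (22.2%, beside 16.1% of all tested genes) and was below every ST-HSC value for 1 (3.70%, beside 17.5%). The log2 fold change was positive for 16 and negative for 11, and among genes with overlapping groups it ran from -1.75 ± 1.43 (SE) for Plxna2 to 1.77 ± 1.85 for Slit2. Their median of 0.31, also with Ephb6 set at its lower bound, stood beside -0.010 over all tested genes, and was -0.10 under a filter of 5 CPM in 2 libraries. It was 0.11 without LT-HSC 1, 0.61 without LT-HSC 2, 0.19 without ST-HSC 1 and 0.74 without ST-HSC 2. Passing the filter depends on a gene's own high libraries, so these counts describe only the genes that passed. Among genes below it, Sema3e, Epha7, Ephb3, Nrp1 and Unc5d also had both LT-HSC values below both ST-HSC values. Every guidance gene with both LT-HSC values above was tested, so the imbalance holds only for genes that passed.

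**Figure D3:**
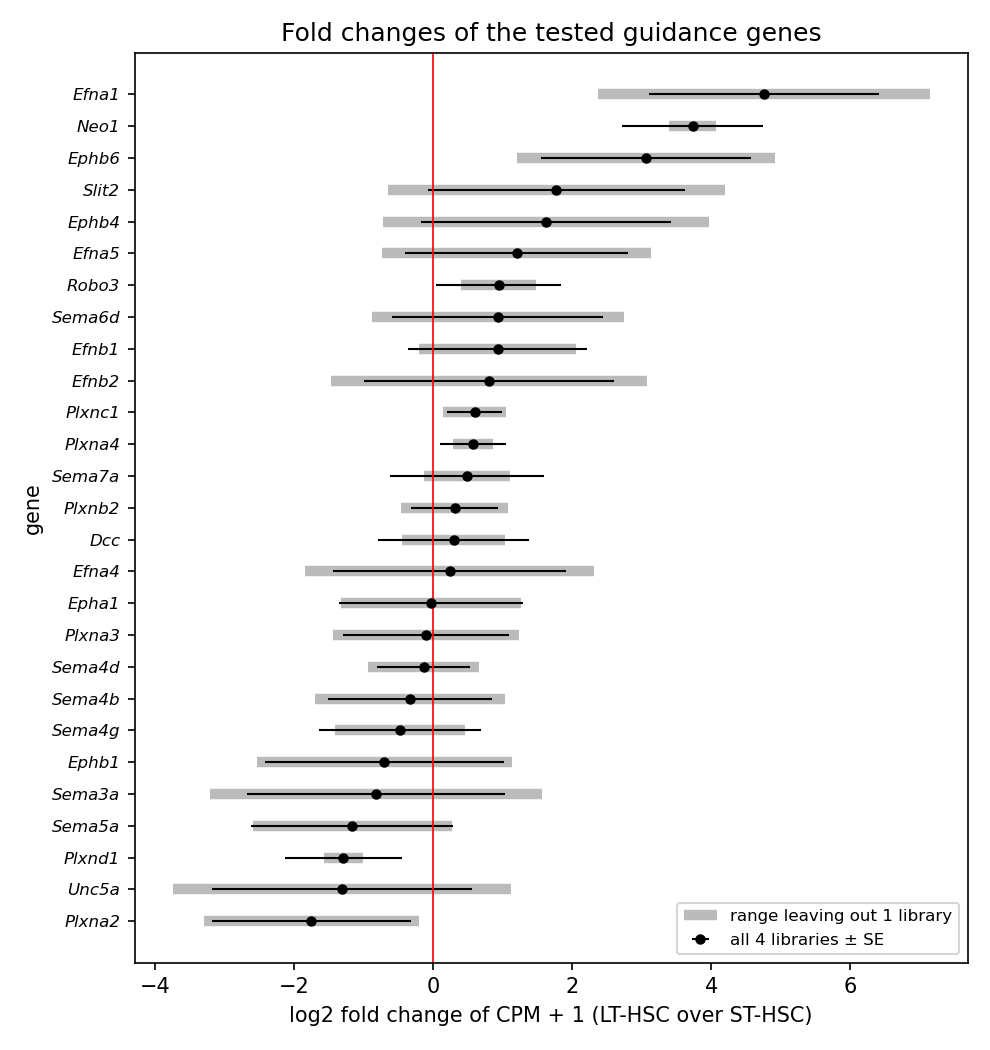
Points are log2 fold changes of CPM + 1, LT-HSC over ST-HSC, for the 27 tested guidance genes, with thin bars for the standard error of the limma fit and grey bands for the range when each library was left out in turn. Neo1 at 3.73 and Efna1 at 4.76 lie farthest right, and 0 of 27 passed the adjusted threshold. Their bands lie on the right of 0, as they must for groups that do not overlap.

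Guidance genes with a mean under 30 CPM spread more within LT-HSC than within ST-HSC. Among the 14 tested members with a mean of 1 to 10 CPM, the median absolute log2 difference between libraries was 2.61 in LT-HSC, against 1.42 in ST-HSC, beside 1.46 and 1.25 over all tested genes of that level. For the 8 at 10 to 30 CPM it was 1.96 in LT-HSC and 1.20 in ST-HSC, beside 1.16 and 0.961. For the 5 at 30 to 200 CPM it was 0.62 and 0.58, beside 0.58 and 0.46. These values are described without a test.

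A group of 15 guidance genes was at or above the floor in LT-HSC 1 alone, with 19 to 257 reads there and at most 2 in any other library. They were 23.1% of the 65, beside 5.44% of all genes. The 5 EphA receptors Epha2, Epha3, Epha4, Epha5 and Epha6 belonged to it, with 66, 179, 24, 34 and 19 reads, of which Epha3 reached 13.7 CPM. So did the ligands Slit1, Slit3, Sema3c, Sema3d, Sema3f, Sema6a and Efna3, with 38, 28, 110, 38, 59, 91 and 22 reads. The receptors Robo2, Nrp2 and Unc5c completed it, with 257, 62 and 28 reads. Leaving out LT-HSC 1, 39 of the 65 genes reached the floor in some library, against 54 with it. Other libraries alone held 2 each: Sema4f and Efna2 in LT-HSC 2, Sema6c and Unc5d in ST-HSC 1, and Plxna1 and Ephb2 in ST-HSC 2.

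Some markers of other cell types were highest in LT-HSC 1 and others in ST-HSC libraries. Of the 10 mesenchymal stroma markers, Cxcl12 had 23.9 CPM in LT-HSC 1 and 0.371 CPM in LT-HSC 2, and 0 CPM in both ST-HSC libraries, and Col3a1 had 9.25 CPM in LT-HSC 1 alone. Col1a2 had 38.9 and 6.93 CPM in LT-HSC, against 0 and 0.135 CPM in ST-HSC. Others lay the other way: Vcam1 had 5.20 and 22.6 CPM in LT-HSC, against 44.9 and 22.6 CPM in ST-HSC, Pdgfrb had 2.29 and 0 CPM in LT-HSC, against 0.798 and 13.1 CPM in ST-HSC, and Bglap had 4.79 CPM in ST-HSC 1 alone. The stroma list summed to 79.8 and 29.9 CPM in LT-HSC, against 50.5 and 36.1 CPM in ST-HSC, with 6 of them at or above the floor in LT-HSC 1 and 3 in each other library, while Lepr and Lum held at most 1 read in each. The 10 endothelial markers summed to 757 and 849 CPM in LT-HSC, against 459 and 465 CPM in ST-HSC. Vwf gave 304 and 379.8 CPM of that in LT-HSC, against 45.4 and 9.23 CPM in ST-HSC, while Cdh5 had 2.52 and 0 CPM in LT-HSC, against 2.39 and 9.90 CPM in ST-HSC, and Plvap held at most 1 read in each. Of the blood lineages, megakaryocyte markers summed to 163 and 84.8 CPM in LT-HSC, against 280.0 and 223 CPM in ST-HSC, of which Itga2b gave 2.52 and 5.07 CPM in LT-HSC, against 151.7 and 105 CPM in ST-HSC. For erythroid markers the sums were 315 and 264 CPM in LT-HSC, against 442 and 349 CPM in ST-HSC. Neutrophil markers summed to 342 and 269 CPM in LT-HSC, against 539 and 272 CPM in ST-HSC, and macrophage markers to 205 and 179 CPM in LT-HSC, against 249 and 197 CPM in ST-HSC. B cell markers summed to 209 and 129.9 CPM in LT-HSC, against 147 and 109 CPM in ST-HSC, and T and NK cell markers to 40.7 and 109 CPM in LT-HSC, against 141 and 149.98 CPM in ST-HSC. The 10 cell cycle markers summed to 887 and 924 CPM in LT-HSC, against 1728 and 2146 CPM in ST-HSC. The part of any of these in the guidance genes' values was not tested.

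**Figure D4:**
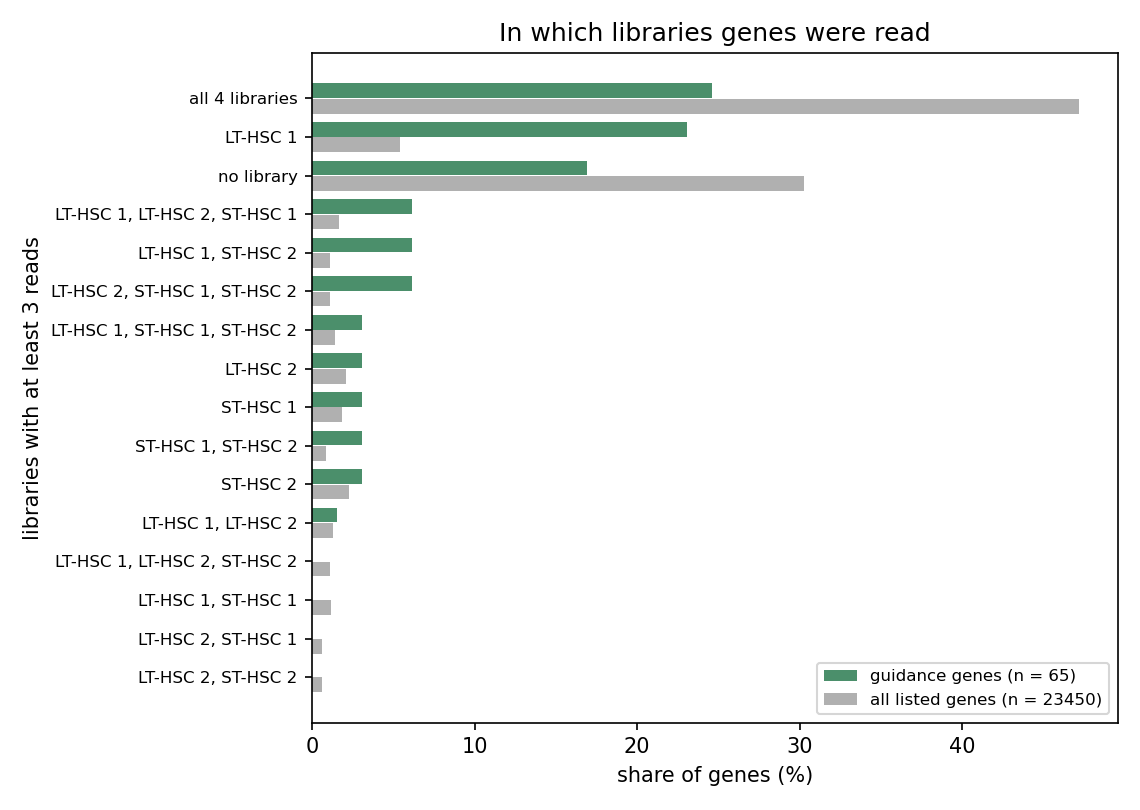
Bars give the share of guidance genes and of all listed genes, in percent, for each set of libraries in which a gene held at least 3 reads. Guidance genes exceed all genes most for LT-HSC 1 alone (23.1% against 5.44%), and fall below them for all 4 libraries (24.6% against 47.2%).

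Of 93 ligand and receptor pairs taken from textbook knowledge, 8 had both genes read in LT-HSC, against 10 in ST-HSC, and 5 of these were shared. The shared pairs were Efnb2 with Ephb4, Sema4d with Plxnb1, Sema4d with Plxnb2, Sema4g with Plxnb2, and Sema7a with Plxnc1. Pairs read in LT-HSC but not in both ST-HSC libraries were Efnb1 with Ephb4, Efnb1 with Ephb6 and Efnb2 with Ephb6. The first rests on the floor: in ST-HSC 1 and 2, Efnb1 held 66 and 2 reads and Ephb4 46 and 22. Those read in ST-HSC but not in both LT-HSC libraries were Efna4 with Epha1, Efna4 with Epha7, Efnb2 with Ephb3, Sema3a with Nrp1 and Sema3e with Plxnd1. Of these genes, Sema3e and Epha1 held 7 reads each in ST-HSC 1, and Epha7 and Nrp1 held 7 and 8 in ST-HSC 2. Efna1 had no partner of the EphA family read in both LT-HSC libraries, and none of the 6 Slit and Robo pairs was read in both libraries of either group. Within LT-HSC 1, however, Slit1, Slit2, Slit3, Robo1 and Robo2 held 38, 365, 28, 130 and 257 reads. Efna1 held 2284 reads there, beside 19 to 179 reads of Epha2 to Epha6. In LT-HSC 2 it held 1824 reads, beside 81 of Epha1. A pair read in a library says only that RNA of both genes was there, in the same or in different cells.

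**Figure D5:**
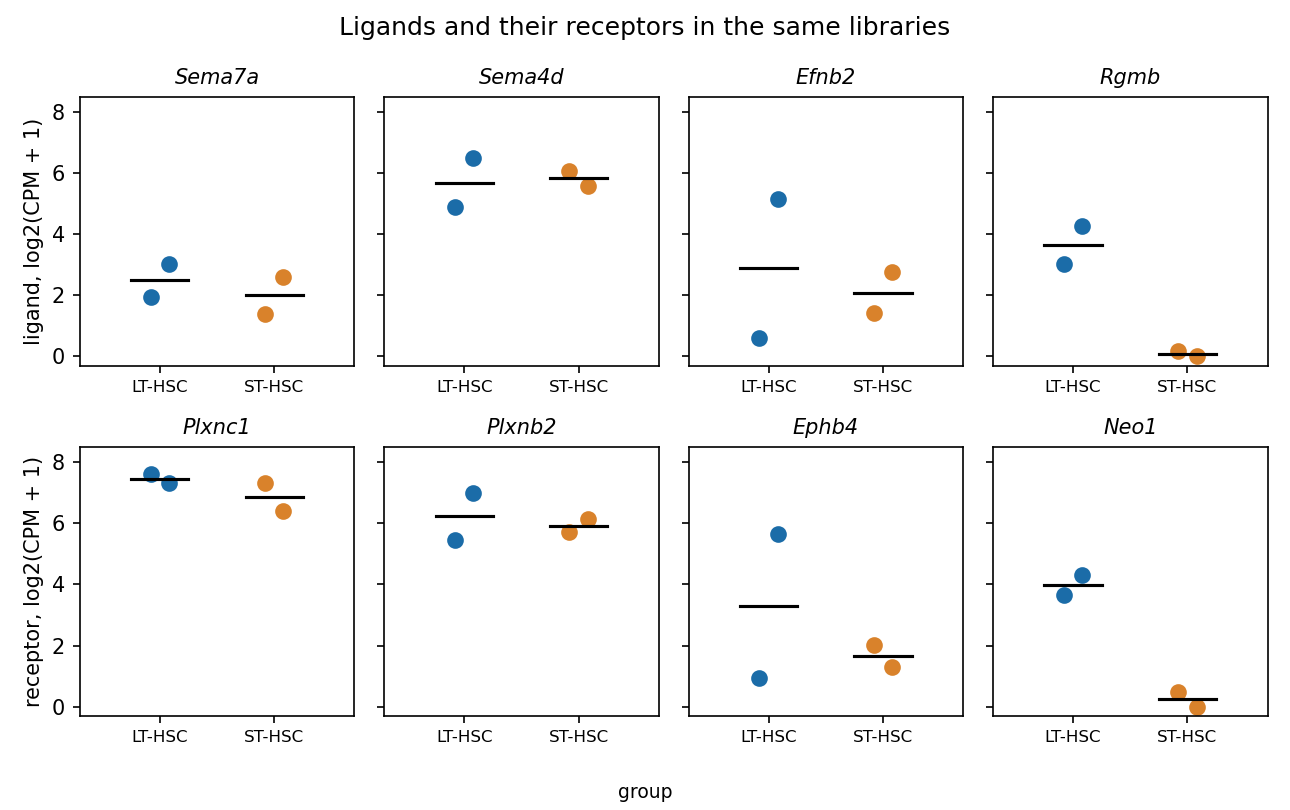
Upper panels show ligands and lower panels the receptors paired with them, as log2(CPM + 1), with 1 point per library and bars at the mean of each group, LT-HSC left of ST-HSC. Efnb2 and Ephb4 share LT-HSC 2 as their highest library, and Rgmb and its receptor Neo1 lie near 0 in ST-HSC.

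Genes working with these cues gave 0 calls by limma. Of 25 other ligands and partners in the files, 14 were tested, with 0 called in each direction, 2 higher and 1 lower at an unadjusted p under 0.05, and a median log2 fold change of 0.18. Of 61 effectors in the files, 50 were tested, with 0 called, 2 higher and 1 lower unadjusted, a median of 0.0048, and 49 were read in all 4 libraries. The 4 genes of both lists higher at an unadjusted p under 0.05 became 1 without LT-HSC 1, 0 without LT-HSC 2 and 1 without ST-HSC 2. The 2 lower ones became 3 without LT-HSC 1 or without LT-HSC 2, 0 without ST-HSC 2, and 1 with no filter, with either other scaling, with limma-voom or with no robust shrinkage. Rgmb, a repulsive guidance molecule that binds Neo1, had 7.19 and 18.1 CPM in LT-HSC, against 0.133 and 0 CPM in ST-HSC (log2 fold change 3.55 ± 1.04, limma adjusted p = 0.718). Robo4, the Robo of endothelium and HSCs, had 210.4 and 122 CPM in LT-HSC, against 67.1 and 16.8 CPM in ST-HSC (2.21 ± 0.75, limma adjusted p = 0.749). Cd72, a receptor of Sema4d in lymphocytes, had 54.0 and 18.3 CPM in LT-HSC, against 119 and 169.7 CPM in ST-HSC (-2.14 ± 0.62, limma adjusted p = 0.718).

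Among the effectors, the kinase gene Rock2 had 242 and 249 CPM in LT-HSC, against 166 and 129 CPM in ST-HSC (log2 fold change 0.74 ± 0.25). Arhgef12, an exchange factor bound by plexin B proteins and named after its values were seen, had 186 and 194 CPM in LT-HSC, against 94.5 and 126 CPM in ST-HSC. Abl2, another kinase gene, had 21.2 and 34.9 CPM in LT-HSC, against 83.2 and 62.9 CPM in ST-HSC (log2 fold change -1.38 ± 0.53), and Pick1, encoding a PDZ protein that binds ephrin-B and Eph proteins, had 22.0 and 36.5 CPM in LT-HSC, against 51.7 and 147.6 CPM in ST-HSC. In these 4 genes, taken for their small p, the LT-HSC and ST-HSC values did not overlap. Over the 50 tested effectors, both LT-HSC values lay above both ST-HSC values for 6 (12%, beside 16.1% of all tested genes). They lay below for 6 (12%, beside 17.5%). The limma adjusted p-values were 0.749 for Rock2, 0.752 for Arhgef12, 0.767 for Abl2 and 0.768 for Pick1. Adam10, the protease that sheds ephrins, had 147 and 179.9 CPM in LT-HSC, against 149 and 180.0 CPM in ST-HSC, and Itgb1, the beta 1 integrin subunit that binds Sema7a, had 228 and 220.6 CPM in LT-HSC, against 242 and 245 CPM in ST-HSC. Ntn4, a netrin, had 0.612 and 1.55 CPM in LT-HSC, against 5.45 and 0 CPM in ST-HSC, and Ntn1, another netrin named after its values were seen, had 0.459 and 0 CPM in LT-HSC, against 0 and 1.15 CPM in ST-HSC. Rgma, Ntn3 and Hfe2 held at most 1 read in each library.

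Promoters are shown for the genes that carry the main results: Plxnc1 and Sema7a as a receptor and ligand pair read in all libraries, and Neo1 and Efna1 as the genes with the smallest p. The letters are RefSeq sequence of build GRCm38.p6, 250 bases upstream of the transcript start, written 5′ to 3′ on the gene's strand, with the GC box letters GGGCGG on either strand in capitals. Plxnc1 lies at chr10:94944846-94945095 on the minus strand, Sema7a at chr9:57939862-57940111 on the plus strand, and Neo1 at chr9:59036442-59036691 on the minus strand. Efna1 has windows at chr3:89280952-89281201 and chr3:89279646-89279895, both on the minus strand.
Plxnc1: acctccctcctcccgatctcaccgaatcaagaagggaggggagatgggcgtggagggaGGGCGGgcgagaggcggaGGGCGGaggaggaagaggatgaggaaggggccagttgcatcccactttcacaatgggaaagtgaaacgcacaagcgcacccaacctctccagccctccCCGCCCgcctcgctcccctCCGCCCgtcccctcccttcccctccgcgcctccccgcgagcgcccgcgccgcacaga
Sema7a: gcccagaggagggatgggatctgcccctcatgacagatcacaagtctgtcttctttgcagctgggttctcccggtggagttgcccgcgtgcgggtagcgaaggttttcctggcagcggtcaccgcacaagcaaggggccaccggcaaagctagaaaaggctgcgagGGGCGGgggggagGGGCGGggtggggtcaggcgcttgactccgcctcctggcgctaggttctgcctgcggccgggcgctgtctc
Neo1: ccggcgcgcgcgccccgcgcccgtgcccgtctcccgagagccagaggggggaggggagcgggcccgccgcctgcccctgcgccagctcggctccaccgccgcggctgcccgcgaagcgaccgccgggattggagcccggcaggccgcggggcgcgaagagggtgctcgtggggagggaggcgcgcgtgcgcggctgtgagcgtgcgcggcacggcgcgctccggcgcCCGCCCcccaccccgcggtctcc
Efna1, start 1: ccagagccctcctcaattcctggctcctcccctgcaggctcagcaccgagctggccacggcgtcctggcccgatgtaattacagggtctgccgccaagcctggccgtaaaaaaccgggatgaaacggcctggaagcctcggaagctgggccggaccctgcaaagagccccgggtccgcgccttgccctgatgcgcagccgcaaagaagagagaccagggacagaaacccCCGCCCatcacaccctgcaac
Efna1, start 2: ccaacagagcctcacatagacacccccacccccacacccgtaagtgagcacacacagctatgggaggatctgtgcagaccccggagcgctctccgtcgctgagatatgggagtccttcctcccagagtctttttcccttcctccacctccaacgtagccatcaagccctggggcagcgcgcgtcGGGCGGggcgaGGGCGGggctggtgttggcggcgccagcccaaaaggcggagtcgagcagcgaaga
The Plxnc1 sequence held 4 matches, Sema7a 2, Neo1 1, and the Efna1 windows 1 and 2. The Neo1 sequence was 83.2% G or C, with 45 CpG dinucleotides.

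In RefSeq windows from 250 bases before to 50 after the start, 56 of the 65 genes matched, and 43 of them (76.8%) held a GC box, beside 38.2% of 27025 genes. It was in 14 of 15 matched genes read in all 4 libraries, 22 of 32 at or above the floor in 1 to 3 libraries, and 7 of 9 in none. Median GC content, averaged over the windows of each gene, was 67.3%, 64.0% and 65.3% in these sets, beside 52.75% over the 27025 genes. The other motifs searched were few, those of blood cell factors and the TATA letters alike. The ETS letters CCGGAAG stood in 2 of the 56 genes (3.57%, beside 9.93% of all genes). The GATA letters AGATAA stood in 3 (5.36%, beside 12.7%), and the RUNX letters TGTGGTT in 1 (1.79%, beside 6.09%). For the TATA letters TATAAA it was 2 (3.57%, beside 15.7%). All motifs were searched on both strands, and a match is a description of letters, not a site in use.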

How the data were processed

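RNA from 4 libraries of sorted bone marrow cells was measured as amplified cDNA, per the labels' protocols. TopHat, with no version, and the mm9 build are named in the submitters' processing notes; the counter with its annotation, strand setting and filters is not given in the sources used here. The authors deposited log2 values, 1 per gene and library. Low values (up to 100 reads) step as log2 of whole reads over a library total: 100% of those above the lowest step lay within 0.1 of a whole number. The sum of reads with unread genes raised to 1 lay inside the interval of totals that the steps allow in 4 of 4 libraries, with shortfalls of 0.00192% to 0.00442%, whereas reads plus 1 would fall short by 0.0853% to 0.116%. Values at the lowest step were therefore taken as 0, and stand for at most 1 read.

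CPM were recovered from the log2 values with the authors' library totals. Where 2 or more libraries reached 1 CPM, a gene entered the limma test (limma 3.58.1, R 4.3.3, statmod 1.5.0, with trend and robust options) of log2(CPM + 1), LT-HSC minus ST-HSC. Benjamini-Hochberg adjustment ran across every gene that entered, at a threshold of 0.05. The fit was tested on simulated data, with the same dispersion set for every gene and changes placed only in genes of higher level. That test does not cover genes of low level. Each SD is of CPM between the 2 libraries of 1 group. Reads of same-group libraries differed beyond sampling noise (chi-square over degrees of freedom 168.1 for LT-HSC, 133.9 for ST-HSC), and none was treated as a duplicate. Pairs taken across the groups gave 148.1 to 170.0. Over tested genes, the correlation r was 0.739 for the LT-HSC pair and 0.799 for the ST-HSC pair. LT-HSC 1 had r of 0.747 with ST-HSC 1 and 0.717 with ST-HSC 2. LT-HSC 2 had r of 0.766 with ST-HSC 1 and 0.758 with ST-HSC 2. The LT-HSC pair thus correlated less than the pairs across groups, except LT-HSC 1 with ST-HSC 2. The ST-HSC pair correlated most. Exon overlaps came from exon positions and strands in an annotation of GRCm38, not of mm9. They may differ from overlaps in the annotation used for counting. The summed level of 1 marker list is not reported here.

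The genes, lists, pairs and tests were chosen with earlier results of these data known. Guidance genes with a group mean of at least 5 CPM, an unadjusted p under 0.05 or groups without overlap are given per library; other pathway genes are the 3 per direction with the smallest p plus Robo4, Rgmb, Ntn4, Adam10, Cd72 and Itgb1. Alternatives were other filters, pseudocounts, scalings and tests, the replicate number as a block, and leaving out each library. A planned floor of 1 read became 2 reads, since 1 read cannot be told from 0.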

Additional observations from a re-analysis of the deposited data

How the results depend on the processing

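Over 13 alternative settings limma called 0 guidance genes, 0 other pathway genes and 0 of all tested genes, and the direction was kept in every setting that tested the gene for 8 of 27 tested guidance genes: Efna1, Ephb6, Neo1, Plxna2, Plxna4, Plxnc1, Plxnd1 and Robo3 (Ephb6 and Plxna2 did not pass the filter of 5 CPM in 2 libraries). Guidance genes read in LT-HSC numbered 15 to 22, against 16 to 27 in ST-HSC, under other floors (2 reads, 10 reads or 1 CPM in both libraries). Log2 fold changes turned for Efna4 (-0.41 with a pseudocount of 0.25, -2.04 with voom), Ntn4 (0.060 and 1.26 with the same), Epha1 (0.071 with a pseudocount of 5) and Adam10 (0.011, 0.053 and 0.0042 with median-of-ratios factors, upper quartile factors and voom); the cause was not tested. Leaving out 1 library, the range crossed 0 for Adam10 (-0.15 to 0.13), Dcc (-0.44 to 1.03), Efna4 (-1.84 to 2.32), Efna5 (-0.73 to 3.14), Efnb1 (-0.20 to 2.05), Efnb2 (-1.47 to 3.07), Epha1 (-1.33 to 1.26), Ephb1 (-2.54 to 1.14), Ephb4 (-0.73 to 3.98), Ntn4 (-1.67 to 1.02), Plxna3 (-1.44 to 1.24), Plxnb2 (-0.46 to 1.08), Sema3a (-3.21 to 1.57), Sema4b (-1.70 to 1.03), Sema4d (-0.93 to 0.66), Sema4g (-1.41 to 0.45), Sema5a (-2.59 to 0.27), Sema6d (-0.88 to 2.74), Sema7a (-0.13 to 1.11), Slit2 (-0.66 to 4.20) and Unc5a (-3.75 to 1.12). A gene whose groups do not overlap cannot turn when 1 library is left out. This holds for the 8 genes that kept their direction, except Plxna2. With 1 library left in a group, that library is assumed to vary like those of the other group. Over all tested genes the 452 lower at an unadjusted p under 0.05 became 818 without LT-HSC 2, 157 without ST-HSC 1 and 154 without ST-HSC 2. Replicate numbers are shared by the groups, but the labels do not say that they mark a shared mouse or batch, and the correlation over genes of the differences between libraries 1 and 2 was 0.0511. With the replicate number as a block, 0 guidance genes were called, and 401 of all tested genes lay higher and 486 lower at an unadjusted p under 0.05. A gene at 1 read cannot be told from one at 0, which limits what can be said of the guidance genes written as 0 CPM.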
